A study of Mus musculus with 6 samples.

Results

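Expression of 35 genes that mark astrocytes was compared between the brains of PLDP mice and control mice. The genes were taken by symbol, as named in GENCODE M21 on build GRCm38, and all 35 were found among the 60354 features of the count files. All 35 also passed the filter on low counts, with between 226 and 46239 counts per gene and mouse. The list was not chosen on the size of the diet difference, but it was drawn up with earlier results of these data known.

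The mice were male C57BL/6NCrSlc, 16 weeks old at the start, and ate their diets for 16 weeks, 13 animals to a diet. PLDP is porcine liver broken down with protease. It was mixed at 20% into the chow of the PLDP mice, a variant of the purified AIN-93M formula, and the chow of the control mice had its energy adjusted and held no PLDP. RNA came from the whole brain of 3 control mice (numbers 2, 5 and 10) and 3 PLDP mice (17, 22 and 26) after a series of behavioral tests that included forced swimming, and the PLDP diet was not given while these tests ran. Each library was thus 1 animal, handled in all the tests, and a difference between diets is one measured after that handling.

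Astrocytes are the glial cells that clear glutamate and potassium from the space around synapses, take part in the blood-brain barrier through endfeet on vessels, and pass ions and metabolites to each other through gap junctions. They take up glutamate with a pair of transporters, turn it into glutamine, and secrete matrix proteins that support or restrain synapses. Their intermediate filaments accumulate when they react to injury. In whole brain RNA the number of astrocytes and the RNA per astrocyte cannot be told apart, and several of the genes are also active elsewhere, such as Vim in endothelium, S100b in oligodendrocytes and Ncan in neurons.

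The libraries held between 18797061 and 23938729 counts. The tests used edgeR's quasi-likelihood method over the 18580 features that passed the filter, and expression levels are CPM values, that is, counts over the TMM-adjusted library size. A gene was called, here written "rose" or "fell", at an unadjusted p under 0.05, the study's own threshold, and Benjamini-Hochberg adjusted values over all tested features are given beside it. PLDP mouse 17 stood apart from its group. The chi-square of the counts divided by its degrees of freedom, which is near 1 for counting noise alone, was 5.35 and 5.0 between mouse 17 and the other PLDP mice, and between 2.35 and 3.1 for the remaining pairs within a diet. Hindbrain markers also moved with diet. Of 11 listed, 10 were tested and 9 fell, and their summed level was between 147.0 and 159.4 CPM in control mice and 114.9, 77.3 and 108.3 in PLDP mice 17, 22 and 26. Their part in the astrocyte results was not tested.

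The summed level of the astrocyte genes, in which abundant genes such as Sparcl1 (control mean 2059.0 CPM) weigh most, did not separate the diets. It was 11567.6, 11521.4 and 11461.7 CPM in control mice 2, 5 and 10 and 11246.9, 11393.9 and 11636.7 in PLDP mice 17, 22 and 26. PLDP mice lay both below and above all the control mice, so the groups overlapped. Within this total, Mfge8 and Ncan rose by 10.1% and 10.0%, and Fgfr3, Sparcl1, Aqp4, Mlc1 and Slc39a12 fell, Fgfr3 most and Mlc1 least. The 7 called genes are 20.0% of the list. Over all tested features 8.6% were called, 4.91% as higher and 3.69% as lower. Among the 10104 features with a mean CPM at or above that of the lowest member, 10.0% were called, and among the 1491 at or above the median member 12.6%. With edgeR's quasi-likelihood test 0 of the 35 genes had an adjusted p under 0.05, against 0.0323% of all features, and the smallest adjusted p was 0.136. This count holds for the filter on low counts and all 6 mice. It was 1 (Fgfr3) without the filter, with DESeq2 or with edgeR's likelihood ratio test, and 2 (Slc1a2 and Ncan) without PLDP mouse 17. For 3 genes (Mfge8, Ncan and Gjb6) every PLDP mouse was above every control mouse, which held for 7.29% of all features, and for 5 (Fgfr3, Sparcl1, Aqp4, Mlc1 and Slc7a10) every PLDP mouse was below, which held for 6.9%. The standard errors of these abundant genes were small, with a median of 0.045 on the log2 scale against 0.086 over all tested features. The median log2 fold change was -0.017, with 14 genes above 0 and 21 below, and -0.0006 over all features, of which 49.8% were above 0. Without control mouse 10 this median was -0.035, and without PLDP mouse 17 or 22 it was -0.0094 or -0.0093. Leaving out control mouse 2, control mouse 5 or PLDP mouse 26 left 3 genes lower, and leaving out PLDP mouse 17 gave 5 higher and 7 lower. The share called over all features moved as well. It was 5.95%, 6.49% and 7.24% without control mouse 2, control mouse 5 and PLDP mouse 26, and 12.5% without PLDP mouse 17.

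**Figure D1:**
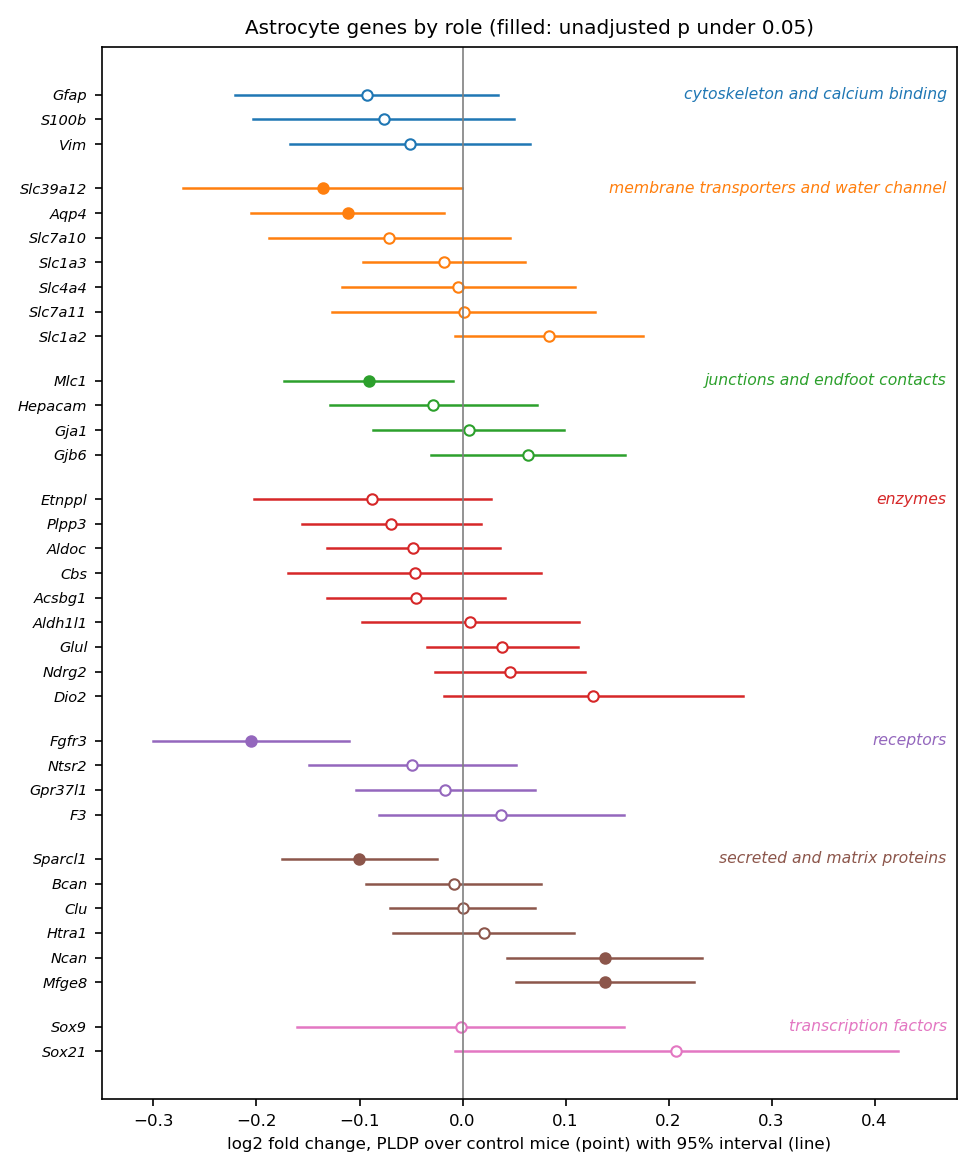
Log2 fold change of each of the 35 astrocyte genes (PLDP over control mice, 3 mice each) from edgeR, with its 95% interval, grouped by the role of the protein. Filled points mark the 7 genes with an unadjusted p under 0.05; the lowest is Fgfr3 at -0.21 and the highest called genes are Mfge8 and Ncan at 0.14, and most other points sit within 0.1 of 0.

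Levels between genes were compared per kb of exon, as means over the 6 mice. Exon length was the union of all annotated exons of a gene, which can exceed the length of the transcript expressed. The levels covered a 218.4-fold range, from Sparcl1 at 677.5 CPM per kb to Slc7a11 at 3.10. The place of Slc7a11 depends on its exon length of 13922 bases. Its control mean of 43.1 CPM was above those of Cbs (34.8), Sox9 (24.6) and Sox21 (12.2). Sparcl1, Glul (433.5), Aldoc (339.8), Ndrg2 (243.7) and Clu (189.7) led the order, and the ranges of these 5 genes over the 6 mice did not overlap. Of the 34 neighboring pairs in the order, 20 had overlapping ranges, so that Gfap (50.5 CPM per kb) and Htra1 (50.1), or Aldh1l1 (15.4) and Gja1 (15.4), do not differ beyond their spread. The glutamate transporter Slc1a2 stood at 114.7 CPM per kb, above Slc1a3 at 65.0. The transcription factors Sox9 (5.95) and Sox21 (3.47) were among the lowest.

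**Figure D2:**
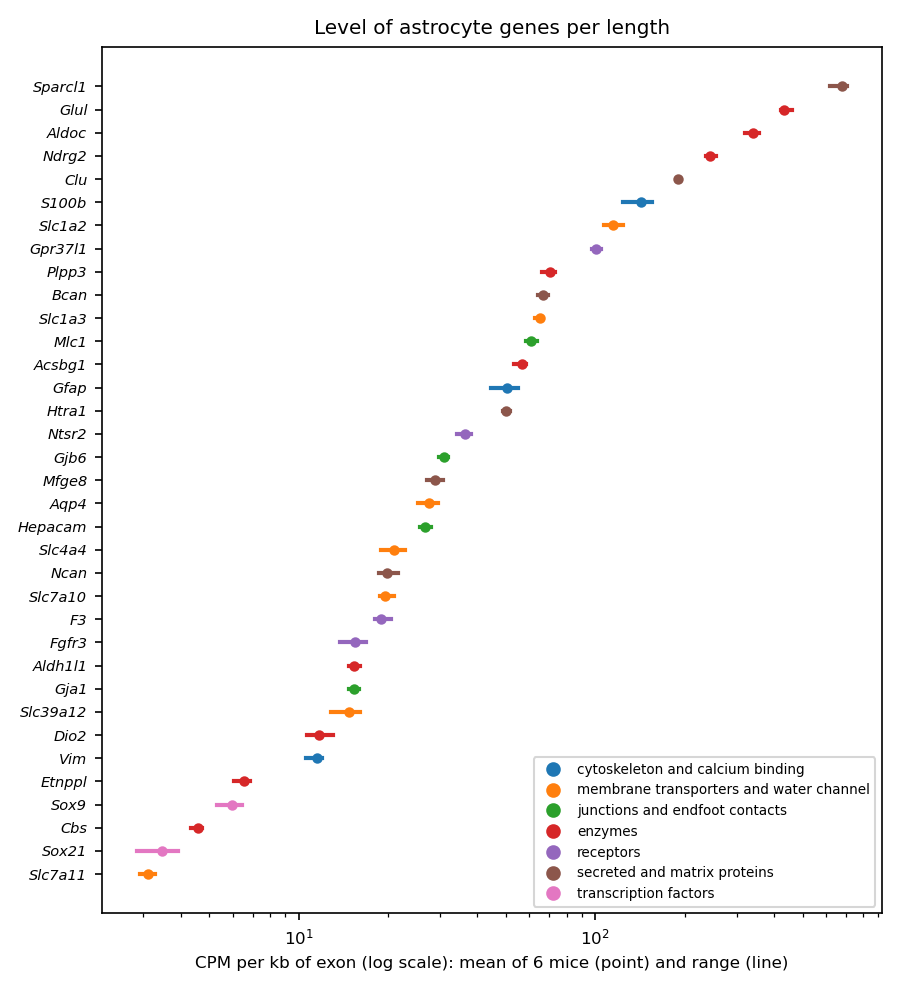
Mean level per kb of exon over 6 mice (points) and range over the mice (lines) on a log axis, colored by role. The order runs from Sparcl1 at 677.5 to Slc7a11 at 3.10 CPM per kb, with separate ranges among the first 5 genes and overlapping ranges for 20 of the 34 neighboring pairs.

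The receptors held the gene with the smallest p. Fgfr3 (ENSMUSG00000054252, chromosome 5 of GRCm38 from 33721674 to 33737068) encodes a fibroblast growth factor receptor that in the adult brain is used as an astrocyte marker. It had 117.8, 119.3 and 120.5 CPM in control mice 2, 5 and 10 and 98.7, 104.0 and 107.6 in PLDP mice 17, 22 and 26. Every PLDP value was lower than every control value, and the control values lay close together. Fgfr3 differed by -0.21 on the log2 scale (standard error 0.045, 95% interval from -0.30 to -0.11, edgeR adjusted p = 0.136, ranging over the alternatives from 0.00884 without the filter to 0.4795 without control mouse 2), and Fgfr3 fell in all 6 fits that left out 1 mouse. An exon of Fgfr3 overlaps a gene on the other strand, as do exons of Slc1a2, Slc7a10, Dio2 and Sox21, while Aldh1l1 and Glul overlap a gene on either strand. Whether the counting used strand is not given in the sources used here, so reads of these 7 genes and their neighbors may be mixed. Of the other receptors, Ntsr2, a neurotensin receptor, had a log2 fold change of -0.05, Gpr37l1, an orphan receptor, -0.02, and F3, tissue factor, 0.04, and none of these 3 was called. For Ntsr2 the control mice had 115.0, 115.0 and 115.6 CPM and the PLDP mice 118.9, 106.4 and 108.8, on both sides of them. Without PLDP mouse 17, which had the highest value, Ntsr2 had a log2 fold change of -0.099 (edgeR adjusted p = 0.318, and up to 0.962 in the other alternatives).

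Among the secreted and matrix proteins 2 of 6 genes rose and 1 fell. Mfge8 (ENSMUSG00000030605, chromosome 7 from 79133768 to 79149060) encodes a glycoprotein that bridges phosphatidylserine on dying cells or debris to engulfing cells. Mfge8 had 127.0, 128.7 and 129.2 CPM in control mice 2, 5 and 10 and 144.4, 138.2 and 141.2 in PLDP mice 17, 22 and 26. The groups were apart by more than the spread within either. Its log2 fold change was 0.14 (standard error 0.041, 95% interval from 0.05 to 0.23, edgeR adjusted p = 0.307). Ncan (ENSMUSG00000002341, chromosome 8 from 70093085 to 70120873) encodes neurocan, a chondroitin sulfate proteoglycan of the perineuronal matrix. It had 139.1, 136.3 and 134.3 CPM in control mice and 141.7, 156.1 and 152.9 in PLDP mice 17, 22 and 26. Mouse 17 was only just above the highest control mouse, and the other PLDP mice were well above it. The log2 fold change of Ncan was 0.14 (standard error 0.045, 95% interval from 0.04 to 0.23, edgeR adjusted p = 0.368). Both genes rose whichever single mouse was removed.

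Sparcl1 (ENSMUSG00000029309, chromosome 5 from 104079111 to 104113733) encodes hevin, a matricellular protein that promotes excitatory synapse formation. It had 2064.2, 2062.2 and 2050.5 CPM in control mice 2, 5 and 10 and 1815.4, 1938.7 and 2008.6 in PLDP mice 17, 22 and 26. The control mice were nearly equal and every PLDP mouse was below them, mouse 17 by most. This was a log2 fold change of -0.10 (standard error 0.036, 95% interval from -0.18 to -0.02, edgeR adjusted p = 0.436), and -0.061 without mouse 17, where the unadjusted p was 0.0302. Bcan, which encodes the related proteoglycan brevican, had 272.5 ± 6.82 CPM in control mice and 270.9 ± 9.76 in PLDP mice (SD, n = 3 each). Clu, the chaperone clusterin, was the most even gene of the list, between 646.3 and 656.8 CPM in all 6 mice, with a log2 fold change of 0.0001 and a 95% interval from -0.070 to 0.070. Htra1, a secreted serine protease, had a log2 fold change of 0.02.

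The sequence before the start of the 3 called genes with the smallest p is shown because Fgfr3, which fell, can be set beside Mfge8 and Ncan, which rose. The bases are from RefSeq on GRCm38.p6, printed 5′ to 3′ on the strand of the gene and ending before the gene's start in GENCODE M21. Capitals mark the letters TTGGC (the core bound by nuclear factor I proteins) or ACAAT (a core bound by SOX proteins), searched on both strands. The intervals are chr5:33721474-33721673 on the plus strand for Fgfr3, and chr7:79149061-79149310 and chr8:70120874-70121094 on the minus strand for Mfge8 and Ncan.
Fgfr3: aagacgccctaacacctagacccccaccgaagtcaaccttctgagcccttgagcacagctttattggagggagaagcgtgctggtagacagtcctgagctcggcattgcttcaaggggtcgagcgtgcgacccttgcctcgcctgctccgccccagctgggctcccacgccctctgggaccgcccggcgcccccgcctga
Mfge8: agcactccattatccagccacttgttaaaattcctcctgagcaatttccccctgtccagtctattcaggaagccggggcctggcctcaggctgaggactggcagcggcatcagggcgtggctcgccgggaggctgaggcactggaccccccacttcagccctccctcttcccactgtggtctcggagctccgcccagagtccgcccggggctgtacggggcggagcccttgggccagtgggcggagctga
Ncan: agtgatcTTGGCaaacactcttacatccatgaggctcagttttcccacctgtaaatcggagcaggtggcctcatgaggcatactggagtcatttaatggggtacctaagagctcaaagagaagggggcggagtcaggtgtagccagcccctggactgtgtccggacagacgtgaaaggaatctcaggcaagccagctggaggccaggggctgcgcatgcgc
Ncan held TTGGC once, and neither motif was in the windows of Fgfr3 or Mfge8. Of the 35 members, 31 had an entry in the promoter table. In the 250 bases before the start that the RefSeq table gives, TTGGC was present in 17 of these 31 and in 41.5% of all 32851 promoters in the table, and ACAAT in 2 of 31 and in 27.7% of all. For these counts the windows were not shortened, whereas those printed hold 200 bases for Fgfr3, 250 for Mfge8 and 221 for Ncan. The start in the table lay 47779, 64366 and 3712 bases from the GENCODE start for Slc1a2, Aldh1l1 and Gfap, whose windows are therefore at another start of the gene. The counts describe the letters in these windows and do not show binding.

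Of the 7 transporter and channel genes, 2 fell and 0 rose. Aqp4 (ENSMUSG00000024411, chromosome 18 from 15389496 to 15410982), the water channel of astrocyte endfeet, had 174.3, 174.7 and 183.9 CPM in control mice 2, 5 and 10 and 157.3, 172.7 and 162.9 in PLDP mice 17, 22 and 26. The PLDP mice were all lower, mouse 22 by only a little. Aqp4 differed by -0.11 on the log2 scale (standard error 0.044, 95% interval from -0.21 to -0.02, edgeR adjusted p = 0.484). It was not called without control mouse 10 (-0.087), PLDP mouse 17 (-0.080) or PLDP mouse 26 (-0.11). Slc39a12 (ENSMUSG00000036949, chromosome 2 from 14388316 to 14494977), a zinc importer, had 46.8, 48.3 and 44.8 CPM in control mice and 38.5, 45.9 and 42.7 in PLDP mice 17, 22 and 26, and these ranges overlapped. Its log2 fold change was -0.14 (standard error 0.064, 95% interval from -0.27 to -0.0002, edgeR adjusted p = 0.579), at the edge of the threshold. Without PLDP mouse 17 it was -0.070, and it was not called either without control mouse 2 (-0.13), control mouse 5 (-0.11) or PLDP mouse 26 (-0.14).

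The glutamate transporters take up most of the glutamate released at synapses. Slc1a2 had 1486.3, 1492.6 and 1407.1 CPM in control mice 2, 5 and 10 and 1430.1, 1592.2 and 1626.6 in PLDP mice 17, 22 and 26. PLDP mouse 17 lay inside the control range and the other PLDP mice above it. Its difference on the log2 scale was 0.08 (standard error 0.043, 95% interval from -0.0071 to 0.17, edgeR adjusted p = 0.617), and without PLDP mouse 17 it was 0.14 (edgeR adjusted p = 0.0270, the lowest of its alternatives, with 0.890 the highest). Without PLDP mouse 26 it was 0.047, and Slc1a2 was also called without a filter on low counts, at 0.081, and with upper-quartile factors, at 0.089. Slc1a3 had 568.3, 541.7 and 566.1 CPM in control mice and 535.5, 551.5 and 568.4 in PLDP mice. These values overlapped almost wholly, with a log2 fold change of -0.02 and a 95% interval from -0.10 to 0.06. Slc4a4, a sodium bicarbonate cotransporter, and Slc7a11, the cystine-glutamate exchanger, had log2 fold changes of -0.0042 and 0.0012. Slc7a10, an exchanger of small neutral amino acids, had 41.3, 44.4 and 41.6 CPM in control mice 2, 5 and 10 and 41.2, 40.3 and 39.8 in PLDP mice 17, 22 and 26. Every PLDP value of Slc7a10 was below the control values, mouse 17 by very little, and its log2 fold change of -0.07 was not called (edgeR adjusted p = 0.767).

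**Figure D3:**
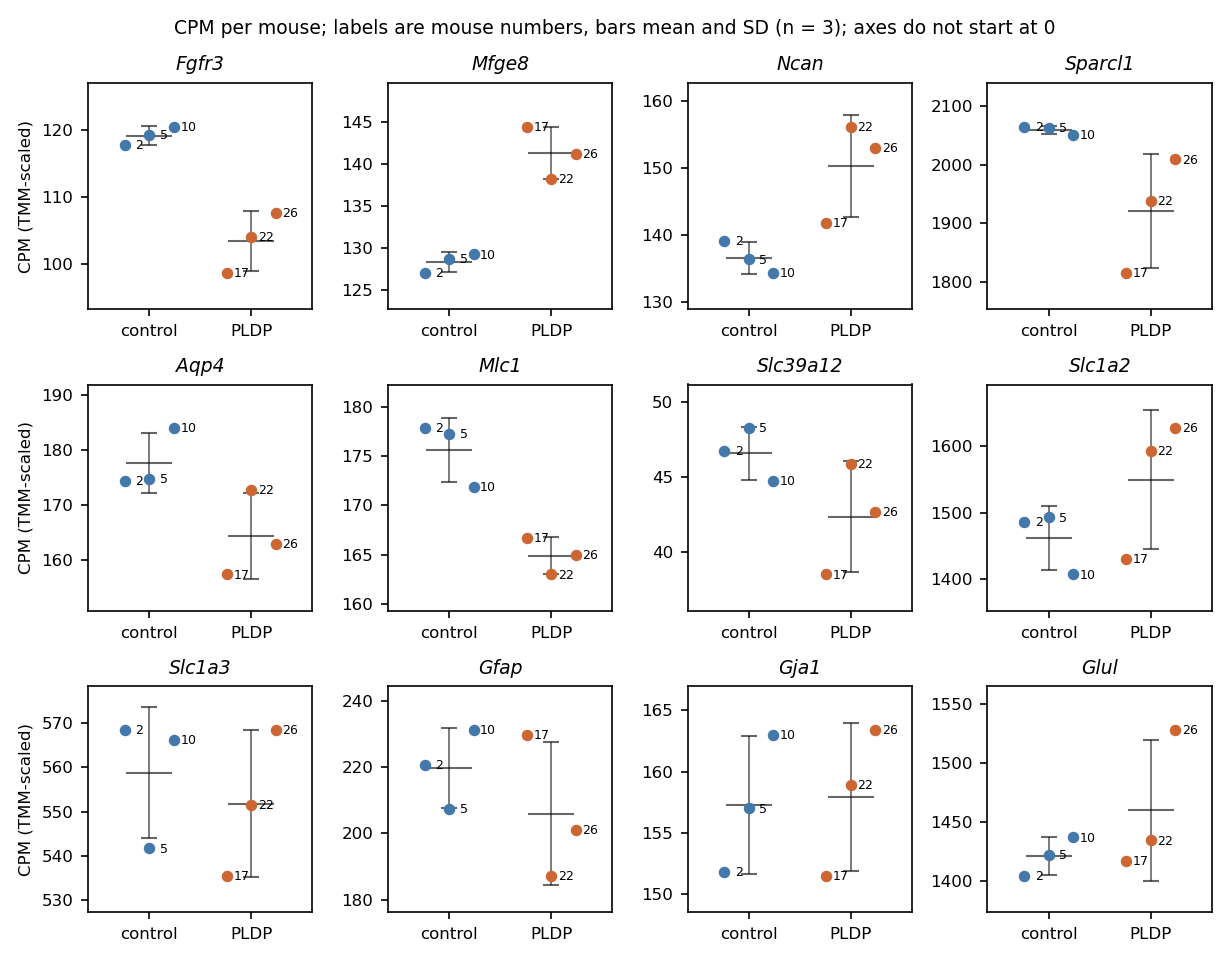
CPM in each mouse for the 7 called genes and 5 further genes of glutamate uptake, gap junctions, filaments and glutamine synthesis; numbers beside points are mouse numbers, bars are the mean and SD of 3 mice, and the axes do not start at 0. The diets do not overlap for Fgfr3, Mfge8, Ncan, Sparcl1, Aqp4 and Mlc1, and PLDP mouse 17 lies apart from PLDP mice 22 and 26 for Slc1a2 and Gfap.

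Neither gap junction gene was called. Gja1, which encodes the main astrocyte connexin, had 151.8, 157.0 and 163.0 CPM in control mice 2, 5 and 10 and 151.5, 158.9 and 163.4 in PLDP mice 17, 22 and 26. Its log2 fold change was 0.0059, with a 95% interval from -0.09 to 0.10. Gjb6, the second connexin of astrocytes, had 82.5, 79.6 and 80.9 CPM in control mice and 84.9, 83.9 and 85.2 in PLDP mice. Every PLDP value of Gjb6 was above every control value, but the log2 fold change of 0.06 was not called (standard error 0.045, edgeR adjusted p = 0.738). Mlc1 and Hepacam encode partners in a membrane complex at astrocyte junctions and endfeet that takes part in volume regulation. Mlc1 (ENSMUSG00000035805, chromosome 15 from 88955884 to 88979007) had 177.8, 177.2 and 171.9 CPM in control mice and 166.7, 163.0 and 165.0 in PLDP mice, which were all lower. It fell with a log2 fold change of -0.09 (standard error 0.039, 95% interval from -0.17 to -0.0088, edgeR adjusted p = 0.524). Without control mouse 2, control mouse 5, PLDP mouse 22 or PLDP mouse 26 it was not called, with log2 fold changes between -0.084 and -0.093. Hepacam had 90.0 ± 3.92 CPM in control mice and 88.3 ± 2.12 in PLDP mice (SD, n = 3 each). The groups of Hepacam overlapped, and whether Mlc1 and Hepacam differ from each other in their change was not tested.

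The filament and calcium-binding genes were not called. Gfap, the filament protein that increases in reactive astrocytes, had 220.6, 207.3 and 231.3 CPM in control mice 2, 5 and 10 and 229.7, 187.2 and 201.1 in PLDP mice 17, 22 and 26. Mouse 17 lay within the control range and the other PLDP mice below it. Gfap differed by -0.09 on the log2 scale (standard error 0.061, 95% interval from -0.22 to 0.03, edgeR adjusted p = 0.708), and -0.18 without mouse 17 (edgeR adjusted p = 0.0684, against up to 0.939 in the other alternatives). It was -0.056 without control mouse 10 and -0.029 without PLDP mouse 22, and Gfap was also called when no filter on low counts was applied, at -0.096. S100b, a calcium-binding protein, had 214.6, 222.0 and 216.8 CPM in control mice and 231.1, 183.6 and 205.2 in PLDP mice 17, 22 and 26. Its values showed the same order among the PLDP mice as Gfap, with mouse 17 highest and mouse 22 lowest. For S100b the log2 fold change was -0.08 (edgeR adjusted p = 0.769) with all mice, -0.17 without mouse 17 (edgeR adjusted p = 0.0795) and 0.0010 without mouse 22. Oligodendrocyte markers, in a list of 10, had the same order in these mice, with a summed level of 101.3%, 90.1% and 90.9% of the control mean in mice 17, 22 and 26 and between 96.8% and 104.0% in the control mice. Hindbrain markers were at 75.9%, 51.0% and 71.5%, also lowest in mouse 22. The part of either in the values of Gfap and S100b was not tested. Vim, the second filament gene, had 55.7 ± 1.58 CPM in control mice and 53.6 ± 3.12 in PLDP mice (SD, n = 3 each).

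None of the 9 genes grouped as enzymes was called, with log2 fold changes between -0.088 and 0.13. Glul, glutamine synthetase, had 1404.6, 1422.1 and 1437.1 CPM in control mice 2, 5 and 10 and 1417.1, 1434.6 and 1527.9 in PLDP mice 17, 22 and 26. Only mouse 26 lay above the control range, and the log2 fold change was 0.04 with a 95% interval from -0.035 to 0.11. Aldh1l1, a folate enzyme and general astrocyte marker, had 70.9, 68.5 and 68.5 CPM in control mice and 66.6, 69.6 and 72.9 in PLDP mice, and the groups overlapped with a log2 fold change of 0.0074. Aldoc, a glycolytic aldolase, had a log2 fold change of -0.05. Acsbg1, an acyl-CoA synthetase, and Cbs, cystathionine beta-synthase, both had -0.05, Plpp3, a lipid phosphate phosphatase, -0.07 and Etnppl, which breaks down phosphoethanolamine, -0.09. Ndrg2, a protein with a hydrolase-like fold, had 0.05. Dio2, the deiodinase that makes active thyroid hormone, had the largest difference of the group, with 63.8, 62.2 and 69.7 CPM in control mice and 62.4, 76.0 and 75.3 in PLDP mice 17, 22 and 26. Mouse 17 lay within the control range and the other PLDP mice above it. Dio2 differed by 0.13 on the log2 scale (standard error 0.069, edgeR adjusted p = 0.632), and it was called without mouse 17, at 0.21 (edgeR adjusted p = 0.0573, against up to 0.912 in the other alternatives), or without control mouse 10, at 0.18, while without PLDP mouse 22 it stood at 0.074. Plpp3 was called without PLDP mouse 22, at -0.11, and Etnppl without PLDP mouse 26, at -0.14.

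Sox9, a transcription factor that maintains astrocyte identity, had 26.5, 25.3 and 22.0 CPM in control mice 2, 5 and 10 and 23.9, 24.8 and 25.2 in PLDP mice. The PLDP values lay inside the control range, and the log2 fold change was -0.0017 with a 95% interval from -0.16 to 0.16. Sox21, a related factor of lower level, had 10.9, 14.1 and 11.6 CPM in control mice and 13.1, 14.4 and 14.9 in PLDP mice. Control mouse 5 lay among the PLDP mice. Sox21 differed by 0.21 on the log2 scale (standard error 0.10, 95% interval from -0.0076 to 0.42, edgeR adjusted p = 0.597), and it was called without control mouse 5, at 0.33, or PLDP mouse 17, at 0.26, while without control mouse 2 it stood at 0.13.

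The astrocyte genes varied more among the PLDP mice than among the control mice. The SD of CPM was larger in PLDP mice for 27 of the 35 genes (77.1%), against 57.5% of all tested features. PLDP mouse 17 was the highest or the lowest of the 6 mice for 19 of the 35 genes, highest for 8 and lowest for 11. PLDP mouse 26 was highest for 9 and lowest for 5, and control mouse 10 highest for 7 and lowest for 6. The same share was not computed over all features. In the fit without PLDP mouse 17, 12 genes were called, namely 5 of the 7 called with all mice and 7 further ones. The further genes were Slc1a2, Dio2 and Sox21, which were higher, and Gfap, S100b, Aldoc and Ntsr2, which were lower, while Aqp4 and Slc39a12 were no longer called. Over all features 12.5% were called in that fit. Of these genes Slc1a2 and Ncan had an edgeR adjusted p under 0.05 there, 0.0270 and 0.0282. The highest adjusted p of Ncan over its alternatives was 0.808. The plot of deviations by mouse shows this as a column for PLDP 17 that differs from those of PLDP 22 and PLDP 26. With 3 mice to a diet, exact permutation of the mice could not bring the p of 1 gene below 0.1 on both sides.

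**Figure D4:**
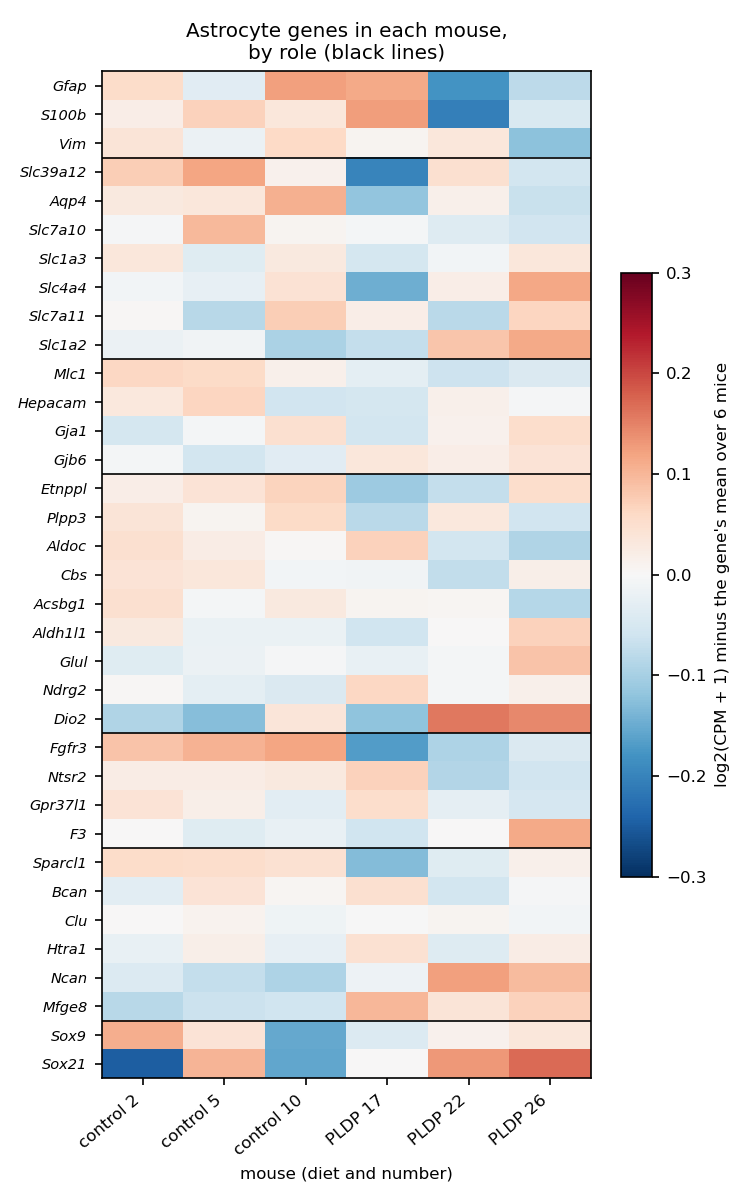
Deviation of log2(CPM + 1) from the gene's mean over 6 mice (color, from -0.3 to 0.3) for 35 astrocyte genes (rows, grouped by role) in each mouse (columns). Control columns are pale for most genes, and PLDP 17 differs in color from PLDP 22 and 26 for Gfap, S100b, Slc1a2, Dio2 and Slc4a4.

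A list of 40 further astrocyte genes, all of which were tested, gave 3 higher and 2 lower genes, or 12.5%, against 8.6% of all tested features. Its median log2 fold change was -0.0068. That median was -0.0235 without control mouse 5 and -0.0247 without PLDP mouse 22. The lower count was 0 with control mouse 2 or 5 left out, or with DESeq2, and 4 with PLDP mouse 17 or 26 left out, and it was 5 when no filter was applied. Over all features the share called was 5.95%, 6.49% and 4.98% without control mouse 2, without control mouse 5 and with DESeq2. It was 12.5% and 7.24% without PLDP mouse 17 and 26, and 6.54% with no filter. Nfia, a transcription factor that drives astrocyte formation, had 41.4, 41.9 and 42.8 CPM in control mice 2, 5 and 10 and 46.3, 50.7 and 51.3 in PLDP mice. It rose by a log2 fold change of 0.23 (standard error 0.056, edgeR adjusted p = 0.190), with no overlap between the diets. Fam107a, a stress-responsive actin-associated gene, rose from 346.3 ± 18.2 to 386.0 ± 18.4 CPM, and Slc27a1, a fatty acid transporter, from 107.7 ± 1.77 to 117.5 ± 4.603 (SD, n = 3 each). Gpc5, a glypican, fell from 40.5 ± 2.56 to 36.7 ± 1.05 CPM and Gabrg1, a GABA-A receptor subunit, from 32.4 ± 1.15 to 29.4 ± 1.93 (SD, n = 3 each). These 4 genes had edgeR adjusted p of 0.306, 0.438, 0.517 and 0.568.

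Of 22 genes that are induced in reactive astrocytes, 17 passed the filter, 1 rose and 0 fell, or 5.88%, against 8.6% of all tested features. Their median log2 fold change stood at -0.043 (0.022 when PLDP mouse 22 was left out). The gene that rose was Nes, the filament protein nestin, which endothelial and progenitor cells also make. Nes had 13.4, 15.6 and 13.3 CPM in control mice 2, 5 and 10 and 16.4, 19.3 and 15.7 in PLDP mice, a log2 fold change of 0.28 (standard error 0.096, edgeR adjusted p = 0.399). The lowest PLDP value was only just above the highest control value, and Nes was not called without PLDP mouse 22, at 0.18. Serpina3n, a widely used marker of reactive astrocytes, had 17.15 ± 1.59 CPM in control mice and 15.5 ± 0.79 in PLDP mice (SD, n = 3 each), and was not called. Lcn2, Steap4, Timp1, Tgm1 and Ptx3 did not pass the filter.

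Markers of other cells and regions in the same libraries were summed for comparison. Neuronal markers (7 of 8 listed were matched) were between 98.3% and 101.3% of the control mean in all 6 mice, and 1 of the 7, the neurofilament gene Nefl, fell (log2 fold change -0.09) while 0 rose. Of 10 oligodendrocyte markers 4 fell and 0 rose, and of 7 precursor markers 2 fell and 0 rose. Of 9 endothelial markers 2 rose and 0 fell, of 9 tested microglial markers 0 rose and 1 fell, and of 8 markers of mural cells and fibroblasts 1 rose and 0 fell. For comparison, 8.6% of all tested features were called. The 1 called gene is 11.1% of the microglial list and 12.5% of the mural and fibroblast list, so such counts are near that share. Ependymal and choroid plexus markers summed to 75.9%, 95.35% and 88.05% of the control mean in PLDP mice 17, 22 and 26, against between 96.0% and 102.8% in the control mice. Of the 8 tested, 2 fell, the transthyretin gene Ttr (-0.22 on the log2 scale) and the folate receptor gene Folr1 (-0.31), and 0 rose. Ttr made up most of the sum, with 708.4 of 785.6 CPM on the mean of the control mice. The percentages of this list are therefore largely those of Ttr. Aqp4, which ependymal cells also express, and Slc39a12 had the same order among the PLDP mice as this sum, with mouse 17 lowest and mouse 22 highest. Within the list, Ttr, Folr1, Kl, Clic6 and Aqp1 had that order. The ependymal genes Ccdc153 and Tmem212 did not, nor did Rarres2, and all of these were highest in mouse 17 among the PLDP mice. Ccdc153 had 5.44, 4.74 and 5.18 CPM in PLDP mice 17, 22 and 26. Foxj1 of the ependymal list was listed at 0 in all 6 mice, and Itgam of the microglial list had at most 1 count in any mouse. The files also hold 5320 numbered features without a gene identifier, and whether reads of these genes were counted there is not given in the sources used here, so such values are not read as absence of expression. Cerebellar and telencephalic markers, 6 each, had 0 called genes by edgeR's unadjusted p. The part of these cells and regions in the astrocyte results was not tested.

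**Figure D5:**
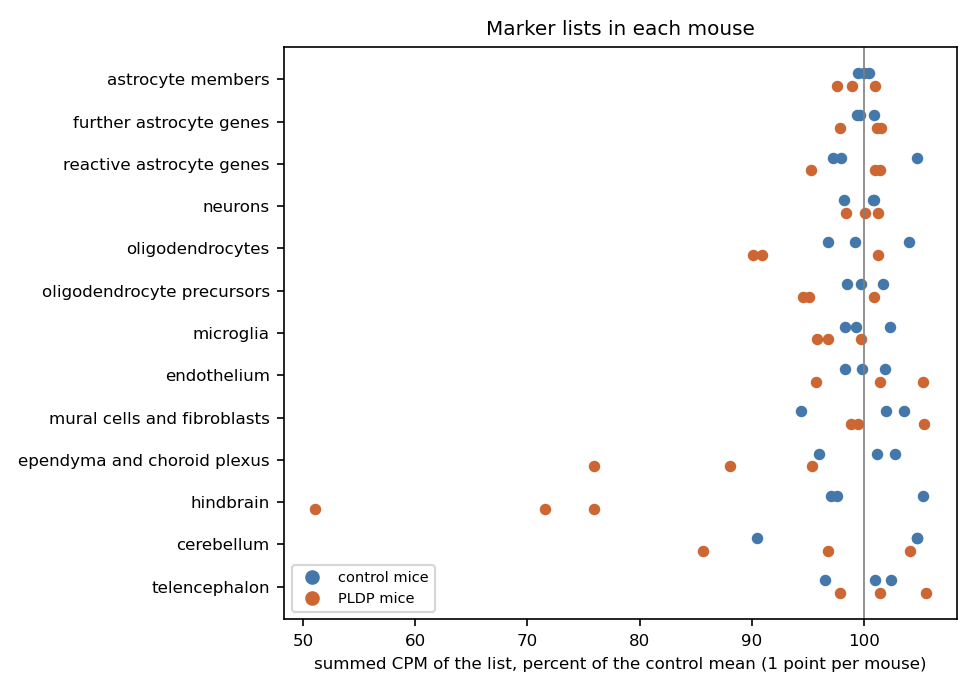
Summed CPM of each marker list in each mouse, as a percentage of the control mean. The astrocyte list stays close to the control mean in all 6 mice, while the hindbrain list lies between 51.0% and 75.9% in PLDP mice.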

How the data were processed

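Read counts, as whole numbers per gene and without normalization, were deposited by the authors for each mouse separately. Per the labels, the submitters' processing notes name cutadapt 2.9, HISAT2 2.2.0, featureCounts 2.6.0 and DESeq2 1.6.3, and the builds GRCm38 and GRCh38. The strand setting and the treatment of shared reads are not given in the sources used here, and 7 of the 35 members have an exon overlapped by another annotated gene. Symbols, positions and exon lengths were taken from GENCODE M21 by identifier. The tests ran under R 4.3.3 in edgeR 4.0.16: filterByExpr (minimum count 10, minimum total 15), TMM scaling, and the quasi-likelihood fit and test for diet without other covariates, adjusted over all 18580 tested features. The fit was tested on simulated data. Alternatives were 2 other filters, 3 other scalings, the likelihood ratio test, DESeq2 1.42.0, limma 3.58.1 voom, and leaving out each mouse. The members and lists were chosen with earlier results of these data known. Every member is accounted for. By the rule for named genes, values in every mouse were printed for called members, for members whose diets did not overlap and for 9 role-defining members, and called genes of the 2 further lists were named. Values of Serpina3n, Ntsr2, S100b, Dio2, Sox21 and of regional genes were added after they were seen. The p-values set the difference between diets against the spread among mice of the same diet, for these 6 mice only. In edgeR the spread of each gene is drawn toward that of other tested features.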

Additional observations from a re-analysis of the deposited data

How the results depend on the processing

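Of the 35 genes, 24 kept their sign under all 14 alternatives, and Fgfr3, Mfge8, Ncan and Sparcl1 kept an unadjusted p under 0.05 in all of them. Slc39a12 was not called with DESeq2, with relative log expression or upper-quartile factors, or with at least 10 counts in every mouse. Without a filter on low counts 5 genes were called higher in place of 2, with Slc1a2, Dio2 and Sox21 added. Leaving out 1 mouse gave from 2 to 5 higher genes, from 3 to 7 lower genes and a median log2 fold change from -0.035 to -0.0093. Over all features the share called in these fits ranged from 5.95% without control mouse 2 to 12.5% without PLDP mouse 17, against 8.6% with all mice. The adjusted p of Fgfr3 was 0.00884 without the filter, 0.0390 with DESeq2 and 0.0230 with the likelihood ratio test, and up to 0.4795 without control mouse 2. The other 11 genes changed sign in some alternative, and of these S100b (-0.08 in the main fit) lay furthest from 0. Clu had log2 fold changes of -0.0002 with DESeq2 and with relative log expression factors, -0.0021 with library size only and -0.0029 without the filter. Slc7a11 had -0.0011 and -0.0018 in the last 2 of these, Slc4a4 0.0004 with upper-quartile factors, and Sox9 0.0036 with those and 0.0017 with limma voom. Leaving out 1 mouse gave ranges of -0.026 to 0.039 for Aldh1l1, -0.035 to 0.016 for Bcan, -0.0071 to 0.0051 for Clu, -0.011 to 0.076 for F3, -0.020 to 0.035 for Gja1, -0.048 to 0.0022 for Gpr37l1, -0.17 to 0.0010 for S100b, -0.041 to 0.0034 for Slc1a3, -0.067 to 0.065 for Slc4a4, -0.040 to 0.042 for Slc7a11 and -0.077 to 0.054 for Sox9. The cause of these changes was not tested. No paired analysis was possible because the diets share no mouse numbers. The shallowest member, Sox21, had 226 to 344 counts per mouse and a standard error of 0.10. How much of it comes from depth and how much from spread between mice was not tested.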

Other observations

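Values of 4 genes that are known to differ between astrocytes of different brain regions are given here singly, without a test of them as a group. Mfge8, which is higher in telencephalic astrocytes, rose as described above, while Lhx2, a transcription factor of the same astrocytes, had 38.4 ± 0.48 CPM in control mice and 39.1 ± 1.09 in PLDP mice (SD, n = 3 each). Of the genes higher in astrocytes outside the telencephalon, Agt had 66.8 ± 2.53 and 65.0 ± 1.69 CPM and the GABA transporter Slc6a11 269.6 ± 10.1 and 245.6 ± 30.7 (SD, n = 3 each), with 210.3 CPM in PLDP mouse 17 alone far below the others. Of these 4 genes, edgeR's unadjusted p was under 0.05 for Mfge8 only. They were chosen after their values were seen.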
